A study of Mus musculus with 10 samples.

Results

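The axonemal dynein arm and radial spoke genes are described here in germ cells of the mouse testis. They were chosen by name alone: every gene symbol in the expression matrices that starts with Dnah, Dnaic, Dnai, Dnal, Dnali, Dnaaf, Rsph or Drc followed by a number. The rule took 37 of 32285 genes. They comprise 5 outer arm heavy chains, 10 inner arm heavy chains, 5 intermediate or light chains, 5 assembly factors, 8 radial spoke genes, 3 genes of the nexin-dynein regulatory complex and 1 antisense transcript, Dnah2os. The mice carried a germline deletion of Smarca5, which encodes the SNF2H chromatin remodelling ATPase. Their genotype, Smarca5 fl/delta; Ddx4-Cre+ (cKO below), has 1 deleted and 1 floxed allele and Cre driven by the germ cell gene Ddx4. Single-cell RNA was measured in 2 whole-testis samples, both cKO, so expression could not be compared between genotypes. Open chromatin was mapped with ATAC-seq on sorted testicular cells, with 8 libraries in all: cKIT+ cells and cells of 4C DNA content (pachytene or pachytene-like), each from wild type C57BL6 and cKO mice, 2 libraries per group. The labels give no age or treatment and do not say that replicates were separate animals, so p-values measure only the spread between these samples. The labels of the cKIT+ libraries also carry the text of the 4C sort, so the identity of those cells rests on the name of the sort.

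A motile axoneme, such as that of the sperm tail, is built of microtubule doublets around a central pair. Outer and inner dynein arms on the doublets are motors: their heavy chains hydrolyse ATP and slide neighbouring doublets, while intermediate and light chains anchor and tune them. Assembly factors (DNAAF proteins) fold and preassemble the arms in the cytoplasm. Radial spokes and the nexin-dynein regulatory complex pass signals from the central pair to the arms and limit the sliding. Loss of such genes causes primary ciliary dyskinesia or malformed, immotile sperm tails. Mammals use partly different heavy chains in sperm tails (DNAH8 and DNAH17) and in airway cilia (DNAH5, DNAH9 and DNAH11), and RSPH6A and RSPH4A are a like pair among the spoke heads. RFX factors, CREM and MYBL1 are transcription factors known to act on ciliary and meiotic genes.

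Promoter sequences are shown for 5 members on which the results turn: the sperm outer arm chain Dnah8, the inner arm chain Dnah1, compared by genotype, and Dnah10, Drc7 and Dnah6, which hold a motif of these factors. The windows, from RefSeq on GRCm38.p6 (mm10), run from 250 bases before the start site to 50 after it. Capitals mark the motif.
Dnah8 promoter, chr17:30626686-30626985, plus strand: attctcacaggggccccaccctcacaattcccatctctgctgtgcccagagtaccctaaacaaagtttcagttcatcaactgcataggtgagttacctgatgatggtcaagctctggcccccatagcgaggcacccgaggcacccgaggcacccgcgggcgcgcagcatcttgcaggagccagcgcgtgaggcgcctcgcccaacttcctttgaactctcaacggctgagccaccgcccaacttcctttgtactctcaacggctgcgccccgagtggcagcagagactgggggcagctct
Dnah10 promoter, chr5:124724835-124725134, plus strand: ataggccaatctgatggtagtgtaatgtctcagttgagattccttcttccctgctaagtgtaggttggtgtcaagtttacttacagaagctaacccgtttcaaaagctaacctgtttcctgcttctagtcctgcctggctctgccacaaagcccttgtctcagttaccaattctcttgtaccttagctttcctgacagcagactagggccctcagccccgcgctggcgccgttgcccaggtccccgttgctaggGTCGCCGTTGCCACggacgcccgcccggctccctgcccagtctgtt
Drc7 promoter, chr8:95054853-95055152, plus strand: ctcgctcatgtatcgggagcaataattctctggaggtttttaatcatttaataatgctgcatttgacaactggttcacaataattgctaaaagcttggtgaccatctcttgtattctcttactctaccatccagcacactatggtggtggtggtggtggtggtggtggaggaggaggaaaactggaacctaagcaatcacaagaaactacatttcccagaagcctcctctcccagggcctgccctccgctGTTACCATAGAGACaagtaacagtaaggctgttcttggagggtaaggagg
Dnah6 promoter, chr6:73221582-73221881, minus strand: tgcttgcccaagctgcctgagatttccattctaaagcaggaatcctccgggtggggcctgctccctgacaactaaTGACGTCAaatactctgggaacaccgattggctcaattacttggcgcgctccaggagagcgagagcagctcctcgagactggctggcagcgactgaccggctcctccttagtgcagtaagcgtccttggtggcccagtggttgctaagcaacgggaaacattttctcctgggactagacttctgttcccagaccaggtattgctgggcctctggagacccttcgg
Dnah1 promoter, chr14:31323847-31324146, minus strand: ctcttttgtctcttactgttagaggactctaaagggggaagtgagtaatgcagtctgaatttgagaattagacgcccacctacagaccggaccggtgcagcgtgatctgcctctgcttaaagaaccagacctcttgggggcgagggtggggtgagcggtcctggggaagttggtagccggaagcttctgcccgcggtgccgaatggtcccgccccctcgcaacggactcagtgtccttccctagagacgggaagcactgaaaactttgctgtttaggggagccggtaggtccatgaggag
In Dnah10 the capitals are an X-box, the RFX motif (GTNNCC, any 3 bases, then GNNAC), beginning 4 bases after the start site, and in Drc7 an X-box beginning at the start-site base. In Dnah6 they are a cAMP response element, the CREM motif (TGACGTCA), at position -175. The windows of Dnah8 and Dnah1 hold neither of these nor AACTGNC, a form of the MYB motif that was also searched. Other forms of the MYB motif were not searched. RefSeq windows were matched for 31 members, and both strands were searched. An X-box was found in 7 of 31 members (22.6%), against 1518 of 32851 windows in the whole table (4.62%). Beside Dnah10 and Drc7 these were Dnaaf2, Dnaaf5, Dnah17, Dnah2 and Rsph9. This form of the MYB motif was found in 8 members (25.8%), against 12.8% of all windows, and the cAMP response element in Dnah6 only (3.23%, against 1.79%). No member's motif overlapped a match of another motif. A match is a run of letters, not a measured binding site.

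After filtering and removal of doublets, replicate 1 held 7413 cells (median 3678 UMIs, unique transcript counts) and replicate 2 held 12933 cells (median 4333 UMIs); the samples shared 27 barcodes. Cells were clustered without the members or the pathway genes, and clusters were named from marker genes. The 6 germ cell classes were differentiating spermatogonia (315 and 586 cells in replicates 1 and 2), leptotene or zygotene spermatocytes (843 and 1607), early to mid pachytene (907 and 2389), late pachytene to dividing (1238 and 1338), round spermatids (1430 and 2386) and elongating spermatids (1281 and 1872). Undifferentiated spermatogonia were not separated. Sertoli cells, Leydig cells (645 and 1450 cells, although the protocol washes the tubules to deplete them) and macrophages were the somatic classes. Germ clusters with over 2500 CPM (counts per 1000000 UMIs) of Malat1, a nuclear RNA, were present in both samples, and they held 913 and 602 of the 2389 early to mid pachytene cells of replicate 2 but 143 of the 907 of replicate 1. Median UMIs in that class were 8920 and 4027. Smarca5 itself stood at 327 and 214 CPM in spermatogonia, at 212 and 289 in leptotene or zygotene cells, and at 9.32 and 4.64 in round spermatids. The 3′ tags counted need not lie in the deleted exons, so these levels do not check the deletion.

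Most members were switched on in the first meiotic stages and fell in spermatids. Levels below are CPM, that is, UMIs of the gene per 1000000 UMIs of the class, given as replicate 1 then replicate 2. Of 37 members, 17 peaked in early to mid pachytene, 9 in late pachytene to dividing cells, 7 in round spermatids, 2 in leptotene or zygotene cells and none in spermatogonia or elongating spermatids. Dnah2os and Rsph4a had too few germ cell UMIs to place. Onset, the first class at 25% or more of the peak level in both samples, fell in leptotene or zygotene for 13 members and in early to mid pachytene for 13. It fell in spermatogonia for 4 (Dnaaf2, Dnaaf5, Dnah10 and Rsph10b), in late pachytene for Dnaic2, and in round spermatids for Dnah3, Dnah5, Dnah9 and Dnah11. The Dnah10 onset rests on low levels: its peak was 27.8 and 15.6 CPM, and barcodes of replicate 1 too small to be cells held it at 20.4. In leptotene or zygotene cells of replicate 1, Dnah10 was again below 25% of its peak. The split between the 2 early classes depended on replicate 2: with replicate 1 alone, 22 members had their onset in leptotene or zygotene and 4 in early to mid pachytene. In replicate 1, 480 of the 843 leptotene or zygotene cells came from a cluster in which another class had the higher marker score. The summed level of 10 early to mid pachytene markers was 4207 and 2125 CPM in leptotene or zygotene and 5637 and 4190 in early to mid pachytene. How far the replicate 1 class reaches into pachytene was not tested. This bears on the onsets and on the rises into leptotene or zygotene. In late pachytene to dividing, 345 of 1238 and 427 of 1338 cells also came from clusters in which another class scored higher. The same 10 markers summed to 5003 and 3766 CPM there. The class's own 9 markers summed to 2889 and 3012, against 1312 and 1262 in early to mid pachytene. How far this class holds earlier cells was not tested, which bears on late pachytene peaks, onsets and steps.

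**Figure D1:**
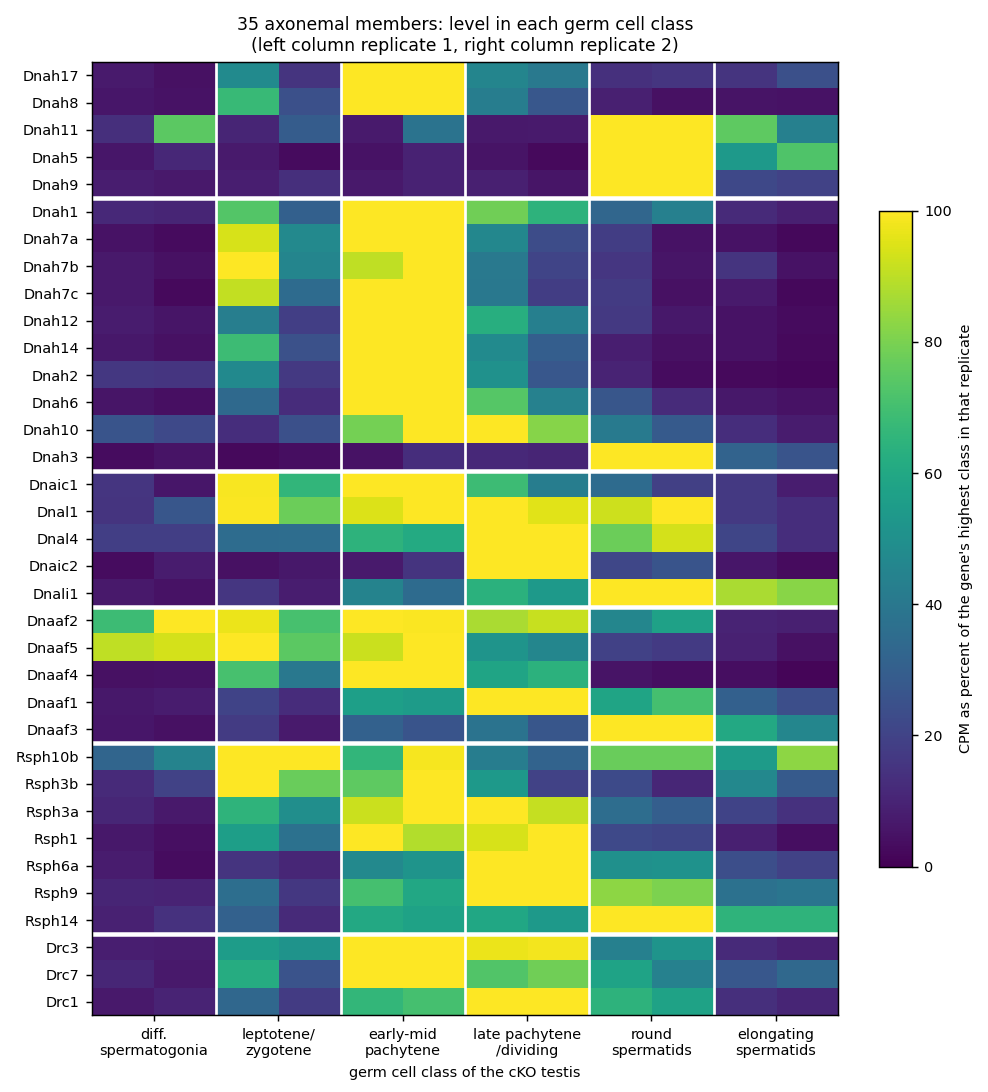
Heatmap of 35 members (rows, grouped by role and separated by white lines) in the 6 germ cell classes (columns, replicate 1 left and replicate 2 right); colour is the CPM as a percent of the gene's highest class in that replicate. Most rows are brightest in the pachytene columns, and Dnah3, Dnah5, Dnah9 and Dnah11 are brightest in round spermatids.

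Changes between successive classes were tested on UMI sums per sample and class with edgeR's quasi-likelihood test, with the sample as a block and Benjamini-Hochberg adjustment over all 20060 genes tested; a call is an adjusted p under 0.05. Of the members, 36 were tested, and Rsph4a was too low. From spermatogonia to leptotene or zygotene, 26 of 36 members rose and none fell, where 17.0% of all genes rose and 11.0% fell. The median log2 fold change of the members was 2.21 and that of all genes 0.33. At the next step, to early to mid pachytene, 20 members rose (14.7% of all genes) and none fell (12.9%), with a median of 1.28 against -0.06. Without the Malat1-high clusters 17 rose at the second step (13.8% of all genes), 14 of them among these 20. At these steps every called member moved the same way in both samples.

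From early to late pachytene, 2 members rose (11.5% of all genes) and 8 fell (18.8%), so the shares of members were not far from the background, and the median was -0.28 against -0.11. With DESeq2 the balance turned, with 7 higher (20.3% of all genes) and 2 lower (12.3%) and a median of 0.14 against 0.28. The balance of all genes turned too: the share of all calls that were higher moved from 37.9 to 62.2%. All 8 falls were lost without the Malat1-high clusters, where 0 members fell (10.9% of all genes) and 2, Dnaic2 and Dnah3, rose (11.5%). Into round spermatids, 18 members fell (23.0% of all genes) and 7 rose (31.9%), with a median of -0.92 against 0.00. Into elongating spermatids, 11 fell (14.7%) and 1 rose (15.8%), with a median of -0.72 against 0.01.

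These calls are relative to the scaling between classes (TMM, which assumes that most genes keep their level). Scaled to total UMIs, the median of all genes moved to -0.10, -0.33, -0.28, -0.06 and -0.49 at the 5 steps. The share of all calls that were higher moved from 60.7 to 37.7% at the leptotene or zygotene step, from 53.2 to 38.4% at the early to mid pachytene step, and from 51.8 to 27.2% at the elongating step. Members called higher then numbered 20, 16, 1, 6 and 1, where 9.24, 10.2, 8.6, 30.2 and 9.44% of all genes were higher. Members called lower numbered 0, 0, 10, 18 and 22, where 15.3, 16.3, 20.6, 24.1 and 25.2% of all genes were lower.

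**Figure D2:**
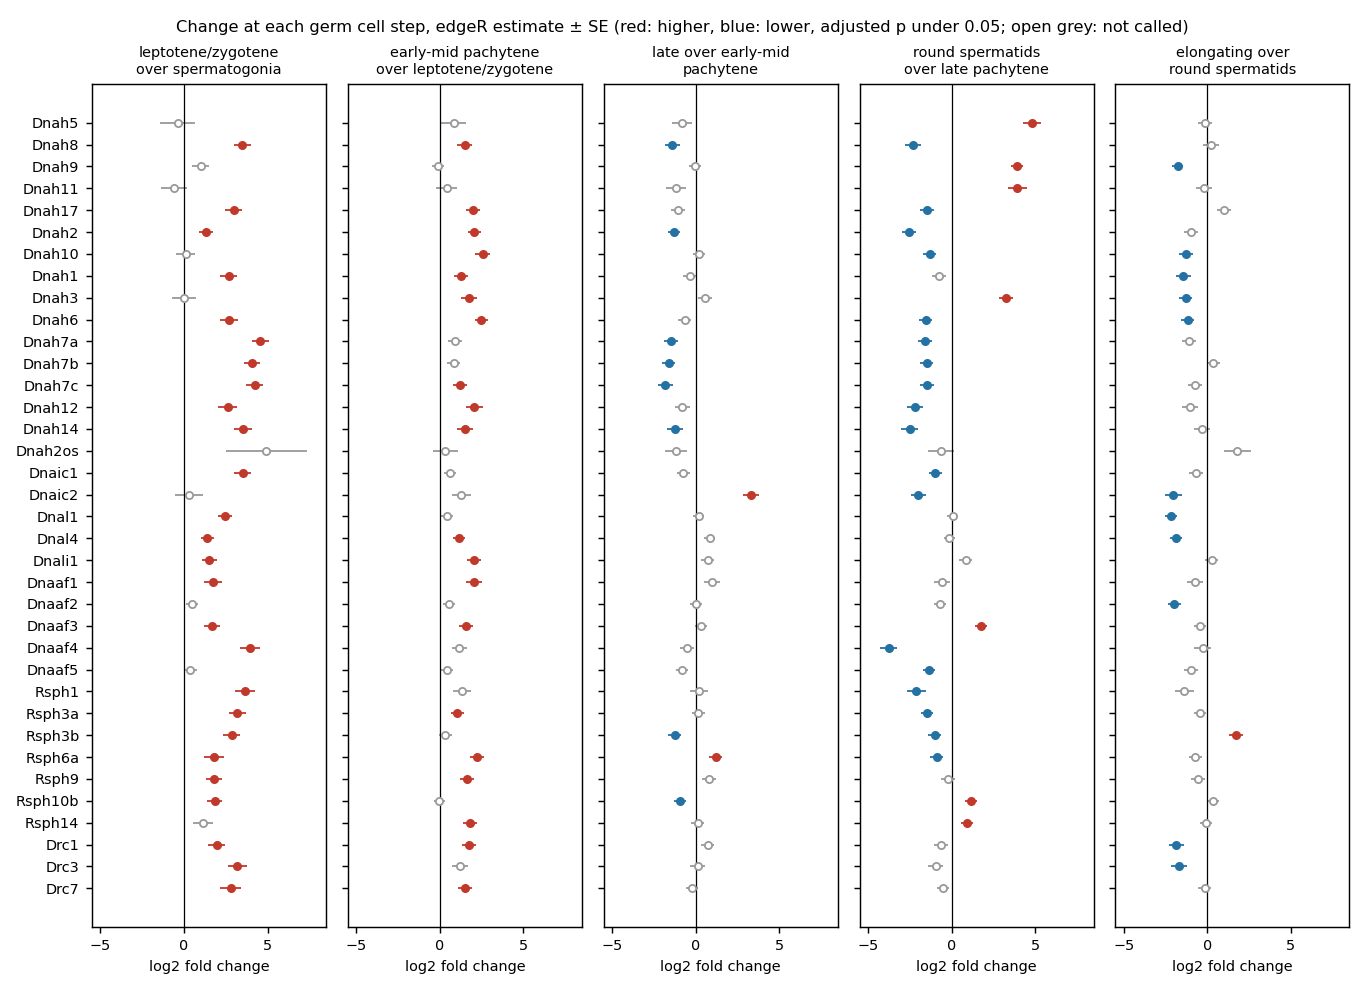
Change of 36 members (rows, by role) at the 5 germ cell steps (panels); points are edgeR log2 fold changes with standard errors, red for calls higher, blue for calls lower, open grey for no call at an adjusted p of 0.05. Red points fill the first 2 panels (26 and 20 members) and blue points the 4th (18 members).

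Among the outer arm heavy chains, the sperm chains Dnah8 and Dnah17 and the cilia chains Dnah5, Dnah9 and Dnah11 rose at different steps. Dnah8 stood at 84.4 and 71.6 CPM in spermatogonia, 968 and 350 in leptotene or zygotene, 1435 and 1429 in early to mid pachytene, 610 and 390 in late pachytene, 124 and 66.6 in round and 78.0 and 70.6 in elongating spermatids. It was low in spermatogonia and spermatids and highest in early to mid pachytene in each sample. It rose by 3.49 ± 0.52 (log2 ± SE, edgeR adjusted p = 1.733e-05) into leptotene or zygotene and by 1.48 ± 0.47 (adjusted p = 0.01938) into early to mid pachytene. It then fell by 1.39 ± 0.47 into late pachytene (adjusted p = 0.02409) and by 2.32 ± 0.48 into round spermatids (adjusted p = 0.0001806). Without the Malat1-high clusters the early pachytene rise was 0.79 and the late pachytene change -0.76, neither of them called. Without the sample block these 2 steps, at 1.43 and -1.38, were not called either, and DESeq2 did not call the second.

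Dnah17 followed the same course, with 13.3 and 7.82 CPM in spermatogonia, 89.2 and 26.7 in leptotene or zygotene, 187 and 177 in early to mid pachytene, 85.1 and 71.8 in late pachytene, 25.8 and 27.1 in round and 28.4 and 43.2 in elongating spermatids. Its rises were 2.97 ± 0.53 (edgeR adjusted p = 0.0001258) and 1.96 ± 0.43 (adjusted p = 0.001083), and it fell by 1.46 ± 0.42 into round spermatids (adjusted p = 0.004137). The change into late pachytene was -1.06 (adjusted p = 0.05209). The first rise lost its call when doublets were kept, at 0.65.

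Dnah9 lay between 3.33 and 8.19 CPM in all classes up to late pachytene, and at 74.4 and 60.0 in round spermatids. Both round spermatid values were above every earlier one. In elongating spermatids it was at 16.2 and 11.8. It rose by 3.92 ± 0.36 into round spermatids, 15.1-fold (edgeR adjusted p = 1.32e-09), and fell by 1.77 ± 0.33 into elongating spermatids (adjusted p = 0.0001856). The Dnah9 fall was not called with coarser clustering. Dnah5 was at 1.07 and 0.404 CPM in late pachytene and at 19.8 and 16.2 in round spermatids, a rise of 4.80 ± 0.54 (adjusted p = 2.816e-08). Dnah11 was at 1.83 and 0.454 CPM in late pachytene and at 27.1 and 6.44 in round spermatids, a rise of 3.92 ± 0.57 (adjusted p = 1.547e-06). The Dnah11 rise was 2.91 and still called without the Malat1-high clusters, and 2.06 and no longer called with coarser clustering (Leiden resolution 0.5). Into elongating spermatids, Dnah5 and Dnah11 differed by -0.13 (adjusted p = 0.8547) and -0.21 (adjusted p = 0.791). These values had the other sign in 4 and 2 of the alternatives, such as 0.28 and 0.16 without the Malat1-high clusters. At the leptotene or zygotene step the 3 cilia chains were not called, with log2 fold changes of 1.00 for Dnah9, -0.38 for Dnah5 and -0.60 for Dnah11 (edgeR adjusted p = 0.1377, 0.8305 and 0.6276). The sign of the first turned in 1 alternative and that of Dnah5 in 2.

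Markers of multiciliated epithelium, which lines the efferent ducts, also rose with the cilia chains into round spermatids. The summed level of 7 markers was 76.95 and 44.98 CPM in late pachytene and 222 and 158 in round spermatids. In spermatogonia it was 18.1 and 19.9. Most of it was Deup1 (185 and 127 CPM). Gmnc, another of these markers, rose from 1.29 and 0.25 CPM in late pachytene to 6.4 and 2.9 in round spermatids. Foxj1, also on the list, was present in round spermatids at the level given below. Mcidas was at most 3.61 CPM, Cdh16 at most 0.572 and Pax8 at most 0.564 in every class. The part of such cells in the rise was not tested.

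**Figure D3:**
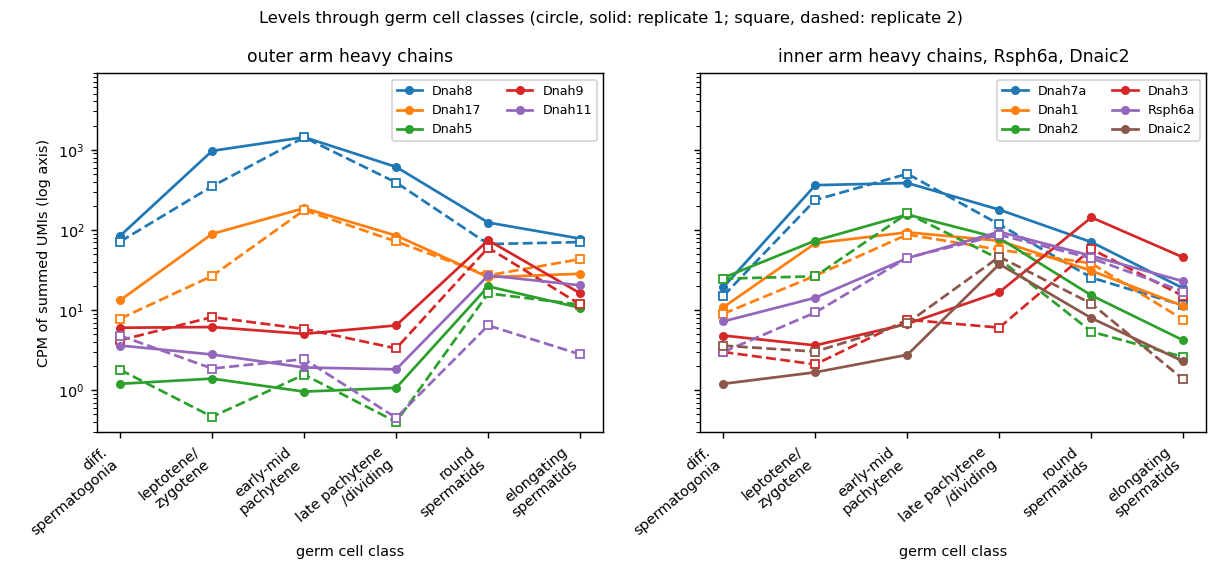
CPM (log axis) in the 6 germ cell classes for the outer arm heavy chains (left) and for 4 inner arm heavy chains, Rsph6a and Dnaic2 (right); circles with solid lines are replicate 1, open squares with dashed lines replicate 2. Dnah8 and Dnah17 peak in early to mid pachytene, while Dnah5, Dnah9, Dnah11 and Dnah3 rise in round spermatids in both samples.

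Of the 10 inner arm heavy chains, 8 rose into leptotene or zygotene, 8 rose into early to mid pachytene, 5 fell into late pachytene and 8 fell into round spermatids, where 17.0, 14.7, 18.8 and 23.0% of all genes did. Without the Malat1-high clusters 4 chains (Dnah1, Dnah6, Dnah10 and Dnah12) rose into early to mid pachytene. The others were not called: Dnah2 went from 2.07 to 0.91 on the log2 scale, Dnah3 from 1.77 to 0.33, Dnah7c from 1.19 to 0.07 and Dnah14 from 1.51 to 0.72. The largest early rises were in the 3 near-identical Dnah7 copies, whose reads the counting may have split between them, so their separate levels are uncertain. Dnah7a went from 19.3 and 15.0 CPM to 362 and 237, Dnah7b from 26.5 and 20.4 to 382 and 206, and Dnah7c from 32.6 and 15.6 to 440 and 209. The rises were 4.57 ± 0.51, 4.06 ± 0.46 and 4.23 ± 0.50 (edgeR adjusted p = 8.179e-07, 8.963e-07 and 1.461e-06). In late pachytene they were lower, at 179 and 117, 155 and 92.7, and 194 and 108 CPM, against 385 and 501, 345 and 454, and 485 and 597 in early to mid pachytene. The log2 fold changes were -1.47 ± 0.42, -1.61 ± 0.39 and -1.81 ± 0.43 (adjusted p = 0.008892, 0.002633 and 0.002089), and without the Malat1-high clusters the changes were -0.62, -0.60 and -0.66 and no longer called. DESeq2 did not call the Dnah7a fall.

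Dnah6, Dnah10 and Dnah12, further inner arm motors, had large rises at the next step. Dnah6 was at 37.2 and 13.6 CPM in leptotene or zygotene and at 109 and 105 in early to mid pachytene, a rise of 2.48 ± 0.40 (edgeR adjusted p = 4.238e-05). Dnah10 went from 3.64 and 4.68 to 22.0 and 19.0 CPM, a rise of 2.56 ± 0.43 (adjusted p = 6.36e-05), and Dnah12 from 133 and 47.5 to 310 and 254, a rise of 2.07 ± 0.49 (adjusted p = 0.00228). In all 3 the samples did not overlap between the classes. Without the Malat1-high clusters the rises were smaller, at 1.66, 1.85 and 1.29, and were still called. Into round spermatids the largest inner arm falls were in Dnah2, from 78.9 and 43.4 to 15.3 and 5.39 CPM (log2 fold change -2.55 ± 0.39, adjusted p = 3.999e-06), and in Dnah14, from 395 and 261 to 69.1 and 40.4 (log2 fold change -2.51 ± 0.50, adjusted p = 0.000119).

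Dnah3 was the inner arm chain that went the other way. It lay between 2.10 and 16.8 CPM up to late pachytene and stood at 143 and 57.7 in round and 45.4 and 14.9 in elongating spermatids. It rose by 3.26 ± 0.40 into round spermatids, 9.57-fold (edgeR adjusted p = 1.234e-07), and the later log2 fold change was -1.30 (adjusted p = 0.008959). The Dnah3 fall was not called with coarser clustering or without the sample block. Dnah1 encodes an inner arm chain whose loss in men causes short, irregular sperm tails. Its CPM was 10.9 and 9.02 in spermatogonia, 68.3 and 26.9 in leptotene or zygotene, 93.4 and 87.7 in early to mid pachytene, 73.3 and 56.7 in late pachytene, 31.0 and 38.3 in round and 11.2 and 7.59 in elongating spermatids. Its rise into leptotene or zygotene was 2.67 ± 0.53 (adjusted p = 0.0004518). The rise into early to mid pachytene, 1.27 ± 0.43 (adjusted p = 0.02624), was not called by DESeq2, without the sample block or with total-UMI scaling. It fell by 1.44 ± 0.44 into elongating spermatids (adjusted p = 0.01294), a call lost with DESeq2 and with coarser clustering. The changes at the steps between were -0.33 (adjusted p = 0.5973; other sign in 1 alternative) and -0.76 (adjusted p = 0.1231).

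Of the intermediate and light chains, Dnaic2, an outer arm intermediate chain, had the most abrupt onset. It lay between 1.21 and 6.90 CPM up to early to mid pachytene, at 37.5 and 46.3 in late pachytene, at 7.96 and 12.1 in round and at 2.29 and 1.37 in elongating spermatids. Both late pachytene values were above all others. The rise was 3.31 ± 0.48 (edgeR adjusted p = 1.633e-05) and the log2 fold change into elongating spermatids was -2.03 ± 0.52 (adjusted p = 0.003931; not called with coarser clustering). Dnaic1, its partner chain, came on earlier, from 14.5 and 6.62 CPM in spermatogonia to 91.8 and 71.1 in leptotene or zygotene, and was at 92.8 and 108 in early to mid pachytene.

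Dnali1, an inner arm light intermediate chain, climbed from 21.7 and 16.8 CPM in spermatogonia to 309 and 352 in round spermatids and was at 270 and 289 in elongating spermatids, where it was still near its peak. Dnal1 and Dnal4, light chains, were not called at the round spermatid step. They stood at 51.9 and 56.3 and at 102 and 151 CPM in round spermatids and at 9.34 and 7.46 and at 27.5 and 20.8 in elongating spermatids. The log2 fold changes were -2.20 ± 0.37 and -1.88 ± 0.37 (edgeR adjusted p = 5.323e-05 and 0.0002975).

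The assembly factors spanned the whole series of classes. Dnaaf5 and Dnaaf2, HEAT-repeat and PIH-domain factors, were present from the start: Dnaaf2 was at 62.7 and 73.4 CPM in spermatogonia and 91.7 and 72.8 in early to mid pachytene. Dnaaf2 was at 42.2 and 42.1 in round and 8.96 and 6.50 in elongating spermatids, a log2 fold change of -1.97 ± 0.39 (edgeR adjusted p = 0.0003652). Dnaaf4 came on in leptotene or zygotene, from 8.44 and 5.41 to 129 and 42.8 CPM, a rise of 3.95 ± 0.60 (adjusted p = 2.328e-05). It was at 106 and 68.8 in late pachytene and at 9.53 and 3.78 in round spermatids, a log2 fold change of -3.76 ± 0.50 (adjusted p = 4.235e-07), the largest fall of any member at that step. Dnaaf1 peaked in late pachytene at 558 and 685 CPM. Dnaaf3 was highest in round spermatids, at 180 and 205 CPM against 68.7 and 54.6 in late pachytene, a rise of 1.75 ± 0.38 (adjusted p = 0.0002925).

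Among the radial spoke genes, Rsph1, a spoke head gene, was at 246 and 202 CPM in spermatogonia, 2169 and 1839 in leptotene or zygotene, 3858 and 4347 in early to mid pachytene and 3621 and 4906 in late pachytene. It was at 846 and 1026 in round and 342 and 182 in elongating spermatids. Of a further pair of spoke head genes, Rsph6a could be tested and Rsph4a was near the limit of detection. Rsph6a was at 7.24 and 3.01 CPM in spermatogonia, 14.3 and 9.36 in leptotene or zygotene, 44.5 and 45.1 in early to mid pachytene, 94.8 and 86.8 in late pachytene, 47.5 and 44.4 in round and 22.9 and 17.0 in elongating spermatids. Rsph4a was at 1.21 CPM or less in every germ class of both samples, with 9 UMIs over all germ cells in the sample with fewer.

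Rsph6a rose by 2.24 ± 0.42 into early to mid pachytene (edgeR adjusted p = 0.0002462). The other steps of Rsph6a were near the threshold: 1.78 ± 0.59 into leptotene or zygotene (adjusted p = 0.0231), 1.19 ± 0.38 into late pachytene (adjusted p = 0.01952) and -0.89 ± 0.38 into round spermatids (adjusted p = 0.04861). Without the Malat1-high clusters none of these 3 was called (1.60, 0.97 and -0.67). Rsph3b, a copy close to Rsph3a, with which it may share reads, was at 9.002 and 3.00 CPM in round and 18.9 and 7.80 in elongating spermatids. It was the one member called higher at that step, by 1.71 ± 0.40 (adjusted p = 0.001871; not called with coarser clustering). Rsph14, a spoke component, was highest in round spermatids, at 26.2 and 29.5 CPM against 15.6 and 16.0 in late pachytene. Rsph10b was higher in round spermatids by 1.15 (adjusted p = 0.007604).

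The 3 genes of the nexin-dynein regulatory complex rose into leptotene or zygotene, and Drc1 and Drc7 also into early to mid pachytene. Drc3 went from 13.3 and 9.62 to 86.7 and 64.1 CPM (log2 fold change 3.19 ± 0.57, edgeR adjusted p = 0.0001309). Drc7 went from 3.62 and 1.80 to 21.0 and 6.78 CPM (log2 fold change 2.81 ± 0.62, adjusted p = 0.001221). None of the 3 changed past the threshold into round spermatids, and Drc1 and Drc3 fell into elongating spermatids. The Drc3 call was lost with DESeq2 and with coarser clustering.

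Averaged over classes, 28 of 36 members were higher in germ than in somatic classes (24.3% of all genes) and 2 were lower (26.8%), with a median log2 fold change of 1.08 against 0.21 for all genes. Germ transcripts were also found in barcodes too small to be cells: in replicate 1, those with 10 to 100 UMIs held Rsph1 at 2136 CPM, Dnah8 at 634 and Dnaaf1 at 344. Rsph1 stood at 2719 and 832 CPM in Sertoli cells and at 290 and 1405 in macrophages. The Sertoli class also held elongating spermatid markers, with a summed level of 12280 and 43040 CPM. Its own Sertoli markers summed to 4357 and 13250 CPM. The part of free RNA in somatic levels was not tested.

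Among the somatic classes both exceptions were highest in Leydig cells, but Dnah9 was higher still in round spermatids (74.4 and 60.0 CPM). Dnah2os was at 33.3 and 49.3 CPM in Leydig cells and 13.98 and 23.2 in macrophages, against 0.879 or less in every germ class, a log2 fold change of -4.53 ± 1.08 (edgeR adjusted p = 0.0009428). Free RNA of replicate 1 held it at 1.86 CPM. Its sense partner Dnah2 was at 51.3 and 37.9 CPM in Leydig cells, and the use of strand in the counting is not given in the sources used here, so reads of the pair may be mixed where they overlap. The macrophage class also held Leydig markers, with a summed level of 9138 and 12740 CPM against 22490 and 31460 in Leydig cells. Dnah9 was at 36.1 and 25.6 CPM in Leydig cells, a germ over somatic log2 fold change of -0.81 (adjusted p = 0.002465). With coarser clustering neither call remained, and with doublets kept the Dnah9 call was lost.

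Genes that work with the members but carry other symbols were taken from 5 lists. At the leptotene or zygotene step, where 17.0% of all genes rose and 11.0% fell, 13 of 15 further assembly factors rose and none fell, with Lrrc6, a cytoplasmic factor, from 13.3 and 10.8 to 110 and 70.6 CPM (3.36 ± 0.48, edgeR adjusted p = 1.137e-05), Pih1d2 up by 3.01 and Daw1 by 2.96. Of 14 further genes of the regulatory complex and of the CCDC39 ruler that sets axonemal spacing, 9 rose and none fell. Ccdc39 went from 43.4 and 24.1 to 237 and 101 CPM (2.77 ± 0.46, adjusted p = 5.467e-05), Iqcd rose by 3.62 and Wdr66 by 2.87. Of 29 spoke partners and central pair genes, 22 rose and 1 fell. Spag16, a central pair protein, went from 77.2 and 46.3 to 1126 and 377 CPM (3.99 ± 0.54, adjusted p = 6.242e-06), Lrrc23 rose by 4.17 and Spef2 by 4.07. The medians of these 3 lists were 1.73, 1.78 and 2.28.

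Of 29 tested genes of outer arm docking and dynein partners, 17 rose (14.7% of all genes) and 2 fell (12.9%) at the early to mid pachytene step, with a median of 1.46. Cfap73 rose by 3.84 ± 0.71, Ccdc42 by 2.44 ± 0.49 and Tekt3, a tektin of the doublet wall, by 2.24 ± 0.45 (edgeR adjusted p = 0.0002168, 0.0004613 and 0.000438). Into round spermatids 8 rose (31.9% of all genes) and 6 fell (23.0%), and into elongating spermatids 3 rose (15.8%) and 14 fell (14.7%).

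Of 13 tested transcription regulators, 7 rose at the leptotene or zygotene step (17.0% of all genes) and none fell, and 6 rose (31.9%) and 3 fell (23.0%) into round spermatids. Mybl1, a meiotic MYB factor, was at 13.3 and 12.03 CPM in spermatogonia and 163 and 131 in leptotene or zygotene. Rfx2 was at 20.5 and 16.2 CPM in spermatogonia, 76.4 and 46.8 in leptotene or zygotene and 106 and 103 in early to mid pachytene. Crem was at 487 and 521 CPM in round spermatids and Foxj1, a master regulator of motile cilia, at 29.4 and 26.1. Into round spermatids Taf7l rose by 2.85 ± 0.41, Gmnc by 2.84 ± 0.59 and Rfx1 by 2.68 ± 0.49 (edgeR adjusted p = 1.33e-06, 0.0002527 and 3.918e-05).

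ATAC peaks were read from the authors' peak lists, called in each library alone, so they were described and not tested. Of the members, 35 had a position (not Rsph10b and Dnah2os), and 31 of them a RefSeq start site. All 35 had a peak within 5 kb of the gene in each of the 4 cKIT+ libraries, where 70.7 to 82.8% of 26624 genes did. In the 4C libraries 34 and 34 (wild type) and 35 and 35 (cKO) did, where 74.0 to 75.7% of genes did. This window takes in the whole gene, so a long gene such as Dnah7c (382050 bases) or Dnah9 (337258) has more room for a peak. The shares were not adjusted for gene length, and 20526 of the 26624 genes had an annotated start site. Within 1 kb of the start site (of either gene end where the start was not known), 29, 30, 30 and 30 members had a peak in the cKIT+ libraries and 31, 30, 31 and 32 in the 4C libraries, in the order wild type 1 and 2, then cKO 1 and 2. Members with a start-site peak in all 8 libraries numbered 28 of 35, and 48.8% of genes had one. They included Dnah9 and Dnah11, whose RNA was low until round spermatids, and Dnah8. The cKIT+ wild type 1 list was the shortest, with 44697 peaks against 112518 to 127222 in the other cKIT+ lists.

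Of the 25 positioned members that rose into leptotene or zygotene, 21 had a start-site peak in all 4 cKIT+ libraries and 23 in all 4 4C libraries. Of the 20 that rose into early to mid pachytene, the numbers were 15 and 17. Of the 6 positioned members that rose into round spermatids, 4 had a start-site peak in all 4 libraries of each sort. Of all 35 positioned members, 29 had one in all 4 cKIT+ libraries and 30 in all 4 4C libraries, and of all genes 52.8 and 55.2% did.

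**Figure D4:**
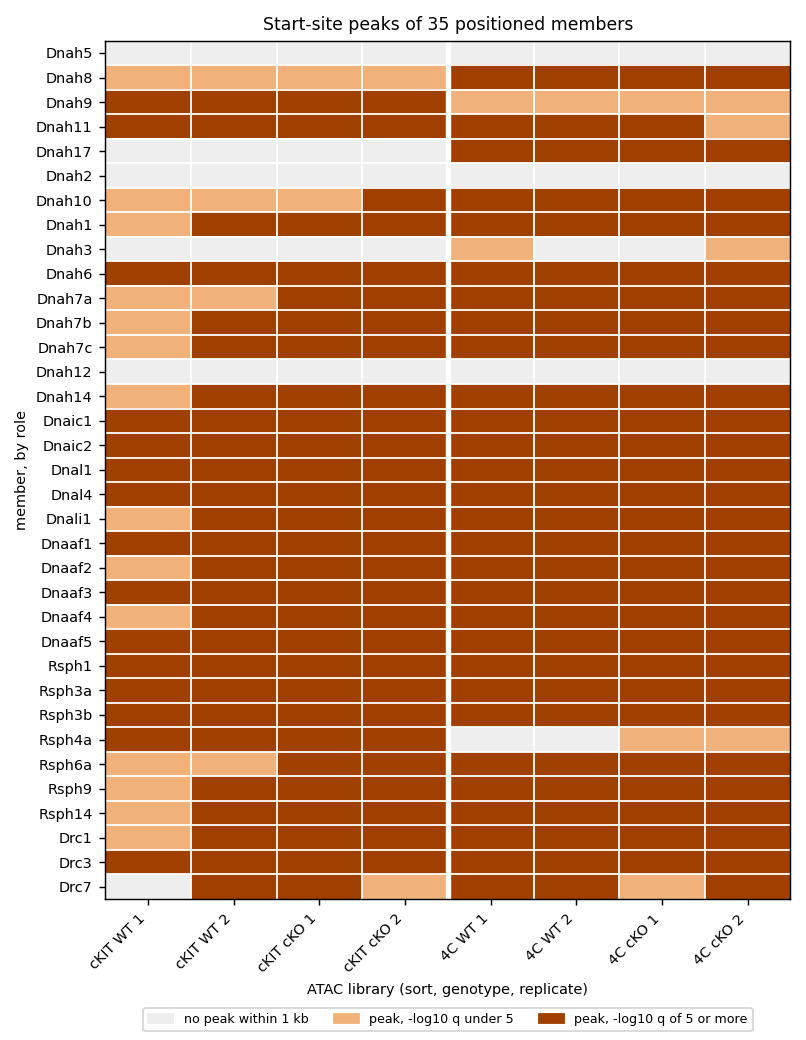
Start-site peaks of 35 positioned members (rows, by role) in the 8 ATAC libraries (columns); grey is no peak within 1 kb, light and dark orange are peaks with a −log10 q under 5 and of 5 or more. In 28 rows all 8 cells are coloured, Dnah17 is coloured in the 4C columns only, and Dnah2, Dnah5 and Dnah12 are grey throughout.

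The members without a constant start-site peak were few. Dnah17 had one in all 4 4C libraries, with the strongest peak beginning 520 to 878 bases from its start site, and in no cKIT+ library, a pattern of 0.958% of genes. The cKIT+ wild type 1 library had a Dnah17 peak just outside the window, at 1099 bases. Dnah2, Dnah5 and Dnah12 had none in any library, as had 25.2% of genes. Dnah2 nevertheless had a peak inside the gene, 1774 to 2291 bases from the start site, in all 8 libraries, and Dnah12 had one at 1378 to 1702 bases in the 4 4C libraries. Drc7, whose X-box lies at the start site, lacked a start-site peak only in the short cKIT+ wild type 1 list; with wild type 2 left out it would count as gained in the cKO.

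Comparing genotypes, a gene was called gained where both cKO libraries of a sort had a peak and both of wild type lacked one, and lost in the reverse case. In cKIT+ cells no member was lost, of 35 that could be (0.287% of genes), and none could be gained in the 5 kb window (7.53%). At the start site 0 of 29 were lost (0.241%) and 0 of 5 gained (5.22%). In 4C cells 0 of 34 were lost (1.23%) and Rsph4a, the one member that could be, was gained (5.11%); at the start site 0 of 30 were lost (1.11%) and 1 of 4, again Rsph4a, was gained (2.93%). With peaks of −log10 q of 5 or more only, Rsph4a was no longer gained, and in cKIT+ cells Dnah7a and Dnah10 were gained in the gene window (13.6% of genes) and Dnah7a and Rsph6a at the start site (7.76%).

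Rsph4a, the spoke head gene with almost no RNA in these testes, had a peak at one gene end in all 4 cKIT+ libraries. The strongest peaks there had fold enrichments of 5.10 and 5.51 for wild type and, for cKO libraries, 6.47 and 7.43, as the authors' peak caller gave them. Neither 4C wild type library had a peak within 5 kb. Both 4C cKO libraries had a weak one, at chr10:33905009-33905459 with a −log10 q of 1.90 and at chr10:33904973-33905494 with a −log10 q of 1.84.

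Counting merged peak regions within 5 kb of members, 28 of 313 regions in cKIT+ cells were cKO-only, meaning present in both cKO libraries and absent from both of wild type (8.95%, against 8.24% near all genes). Another 2 were wild-type-only (0.639%, against 0.675%). In 4C cells 14 of 465 were cKO-only (3.01%, against 4.21%) and 16 wild-type-only (3.44%, against 3.03%). Regions in all 4 4C libraries made up 15.5% near members and 32.7% near all genes, and those in all 4 cKIT+ libraries 24.6% and 20.8%. No test was made of these shares.

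Dnah1 was looked at by genotype because its peaks had been seen to differ, so its values are a description. On mm10 the gene spans chr14:31260375-31325891 on the minus strand, and the RefSeq start site whose window is printed above is at position 31323896. Within 5 kb of the gene, cKIT+ wild type libraries had 3 and 6 peaks and cKO libraries 8 and 8. The 4C wild type libraries had 5 and 5 and the cKO libraries 7 and 6. The peaks covered 653 and 1889 bases (cKIT+ wild type), 2435 and 1753 (cKIT+ cKO), 1912 and 2179 (4C wild type) and 2849 and 2869 (4C cKO). Peak numbers did not overlap between genotypes in either sort, but the covered bases overlapped in cKIT+ cells.

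The mean difference, cKO minus wild type, was 3.5 peaks in cKIT+ cells, 2 to 5 with any library left out, and 0 with peak lists of equal length. In 4C cells it was 1.5 peaks, 1 to 2 with any library left out, and 0 with peaks of −log10 q of 5 or more. A region over the start site, chr14:31323477-31325092, held a peak in all 8 libraries, and so did one in the gene, chr14:31269349-31269993. Another, chr14:31310729-31311092, was in 7, all but cKIT+ wild type 2. Another 2, weaker, regions were in both 4C cKO libraries and no other: chr14:31275560-31276206 (−log10 q 1.53 and 2.53) and chr14:31286517-31286669 (1.47 and 2.43). A last one, chr14:31312762-31312890, was in both cKIT+ cKO libraries only (1.04 and 3.96).

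In the full peak lists, the outermost base in a peak at the start site lay further upstream in the cKO libraries. Measured from the start site, the outermost base of a peak on the upstream side lay at 93 and 852 bases in cKIT+ wild type and at 1195 and 1196 in cKIT+ cKO libraries. In 4C cells the wild type libraries reached 760 and 806 bases, and the cKO libraries 1186 and 1194. The 4 cKO values were close to one another and above all 4 wild type values. In 3 of the 4 cKO libraries this reach comprised separate peaks, and in 4C cKO 2 a single one of 1450 bases. In 4C cKO 1 the outer peak of Dnah1 was weak, with a −log10 q of 1.38. With peak lists of equal length the outer peaks of cKIT+ cKO 1 and 2 and of 4C cKO 1 dropped out. The peaks over the start site then ended at 31324140 and 31324110 in cKIT+ cKO, against 31323989 and 31324748 in cKIT+ wild type. In 4C cKO 1 the end was 31324106, against 31324656 and 31324702 in 4C wild type, so the separation did not hold. The bases covered by peaks from the start site upward overlapped between genotypes: they were 94 and 853 in cKIT+ wild type, 818 and 611 in cKIT+ cKO, 761 and 807 in 4C wild type and 731 and 1195 in 4C cKO libraries. Most of this stretch lies upstream of the printed promoter window and inside the annotated gene span.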

How the data were processed

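The authors deposited raw UMI counts per gene and barcode for 2 single-cell samples, made with Cell Ranger 7.1.0 (replicate 1, 987771 barcodes, 63605819 UMIs) and 9.0.1 (replicate 2, 17744 barcodes, 115830234 UMIs), per the file headers. They also deposited MACS2 broad peak lists on mm10, 1 per ATAC library, whose columns hold a score, a fold enrichment (a ratio) and −log10 p and −log10 q values. Per the submitters' processing notes, cutadapt, Bowtie2 and Seurat 4.1.0 were also used; the intron setting of Cell Ranger and the MACS2 settings are not given in the sources used here. The depth of the ATAC libraries is unknown, since the lists hold no reads.

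Cells with at least 1000 UMIs, 500 genes and at most 10% mitochondrial UMIs were kept, and Scrublet removed 685 and 1329 doublets. They were clustered per sample with scanpy 1.11.5 (2000 variable genes, 30 components, 15 neighbours, Leiden resolution 1), leaving out the members, the pathway lists and sex-linked and mitochondrial genes. Clusters were named from marker genes, and clusters of 325 cells in replicate 1 and of 438 and 15 in replicate 2 stayed unnamed. UMIs were summed per sample and class, 9 classes in all, and tested with edgeR 4.0.16 (R 4.3.3; TMM, filterByExpr, quasi-likelihood, sample as a block, two-sided, Benjamini-Hochberg over 20060 genes); the fit was tested on simulated data. The block stands for classes that come from 1 cell suspension. Fold changes are TMM-scaled, while CPM use total UMIs, so the 2 can differ. DESeq2 1.42.0, other filters, scalings and clusterings, and left-out libraries were tried. Positions and promoters come from RefSeq (GRCm38.p6). By symbol, else by synonym or Ensembl identifier, 26624 of 32285 genes matched, 20526 of them with a start site. A peak within 5 kb of the gene, or 1 kb of the start site, counted with 1 base of overlap.

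The members, the lists and the tests were chosen with earlier results of these data known. Members with full statistics are, at each step, up to 4 called in each direction with the largest change and the same sign in both samples, and Rsph4a, Rsph6a, Dnah1, Dnah5, Dnah8, Dnah9, Dnah11 and Dnah17 whether called or not; from the lists, up to 3 genes at the step with most calls. Other members' values illustrate their roles and were chosen after their values were seen.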

Additional observations from a re-analysis of the deposited data

How the results depend on the processing

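Total-UMI scaling, the Malat1-high clusters and the start-site alternatives (lists of equal length, each library left out) were added after seeing the data. Over all the alternatives, 221 counts or means kept within 1.5 times and 43 moved, and no called change among those named turned sign. The balance of calls into late pachytene turned with DESeq2, and some values without a call changed sign, as given beside them. Outside the named changes, the called rise of Rsph10b into leptotene or zygotene turned negative, without a call, at Leiden resolution 0.5.

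Members higher at the leptotene or zygotene step numbered 17 with doublets kept and 16 with Leiden resolution 0.5. Without the replicate block, 13 members rose into early to mid pachytene and 4 fell into late pachytene; the other counts stayed within 1.5 times. Members higher into late pachytene numbered 7 with DESeq2 (20.3% of all genes), 1 with total-UMI scaling (8.6%) and 8 with doublets kept (20.6%). They numbered 4 with at least 2000 UMIs per cell (13.2%) and 5 with Leiden resolution 0.5 (14.2%). Members lower there numbered 2 with DESeq2 (12.3%) and 0 without the Malat1-high clusters (10.9%). With Leiden resolution 0.5, 4 members rose and 10 fell into round spermatids, and 0 rose and 4 fell into elongating spermatids. Into elongating spermatids, members higher numbered 3 with DESeq2 (21.8% of all genes) and 6 with doublets kept (19.4%). They numbered 3 with at least 2000 UMIs (17.7%) and 3 without the Malat1-high clusters (22.2%). Members lower numbered 7 with DESeq2 (9.59%) and 22 with total-UMI scaling (25.2%). Members lower in germ than in somatic classes numbered 1 with doublets kept and 0 with Leiden resolution 0.5.

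With onset set at 10% of the peak, 10 members began in spermatogonia, 2 in early to mid pachytene, 2 in late pachytene and 2 in round spermatids. At 50% these were 2 in spermatogonia, 5 in leptotene or zygotene, 20 in early to mid pachytene and 3 in late pachytene. Leaving out a replicate gave onsets in leptotene or zygotene of 13 to 22 members and in early to mid pachytene of 4 to 14, and peaks in leptotene or zygotene of 1 to 4.

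With −log10 q of at least 5, 2 members were gained in cKIT+ cells in the gene window and 2 at the start site, 0 were gained in 4C cells in either window, 15 had a start-site peak in cKIT+ wild type 1, and the Dnah1 difference in 4C cells was 0. Without cKIT+ wild type replicate 2, 1 member (Drc7) was gained at the start site, and 0 to 1 over all libraries left out. The Dnah1 difference in cKIT+ cells was 0 with lists of equal length, and the separation of the upstream reach by genotype did not hold there. The causes were not tested. No paired analysis was possible for the ATAC libraries because the peak lists hold no counts and no test was made. The number of libraries, 2 per group, and the single genotype in RNA limit every comparison.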
